A study of Danio rerio with 12 samples.

Results

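The p53 mutants were compared with wild-type embryos on 6 of the 12 arrays of the series, the 3 titled p53 without the BRAF transgene and the 3 titled Tu. The comparison took in 15502 probe sets, which is every one on the array but its Affymetrix control probes. Every sample was total RNA of whole zebrafish embryos at 80 hours post fertilization, obtained by incrossing fish of the stated genotype. Wild type was the Tu strain. The mutants were homozygous for p53-M214K, in which 1 amino acid of the p53 protein is exchanged, and neither group carried the tg(mitf-BRAFV600E) transgene.

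Each array was 1 RNA sample, and the number of embryos or clutches behind it is not given. The sources of p53 replicates 1 and 2 are named 1a and 1b and that of replicate 3 is named 2, so the first pair may share a source. The p-values therefore rest on how far these samples lay apart, and part of that may be technical. The labels do not say whether the mutants descend from Tu fish, so the p53 allele and any other inherited difference between the lines cannot be told apart in this comparison. A second pair of genotypes, 3 arrays each, set the same allele in another background. These were embryos homozygous for tg(mitf-BRAFV600E) with p53-M214K (BRAF;p53) and without it (BRAF). That transgene drives activated BRAF from the mitf promoter, a promoter of the pigment cell lineage. In this pair too, the allele and any other inherited difference between the lines cannot be told apart.

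The p53 protein is a transcription factor that is held at low levels by the ubiquitin ligase Mdm2 and accumulates after DNA damage and other stress. It then switches on genes that stop the cell cycle, repair DNA or start apoptosis. The M214K substitution lies in the DNA-binding domain, and zebrafish homozygous for it are viable, resist damage-induced apoptosis and develop tumours as adults. Unstressed embryos have little active p53.

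Values were on the log2 scale and centred per probe set, so that 0 stood near the median of the 12 arrays and said nothing of how abundant a transcript was. For 1607 of the 15502 probe sets (10.4%) the median lay below 0 instead, and what their values were set against is unknown. A difference of 1 is a change of 2-fold. For this reason the presence of marker genes could not be checked, and levels of different genes were not compared. Across probe sets, p53 replicates 1 and 2 correlated at 0.75 with each other and at 0.47 and 0.48 with replicate 3, while wild-type arrays correlated at 0.67 to 0.77. Mutant and wild-type arrays correlated with each other at 0.25 to 0.54. For p53 replicate 1 these values were 0.54, 0.46 and 0.50, so it was about as close to wild type as to p53 replicate 3. For p53 replicate 2 they were 0.42, 0.32 and 0.48. In whole embryos, fewer cells of a type and less RNA per cell cannot be told apart.

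In the p53 mutants 284 of 15502 probe sets differed from wild type (1.83%). The threshold was a limma adjusted p below 0.05. Of these, 117 were higher in the mutants (0.755%) and 167 lower (1.08%). The called probe sets changed by a median of 0.894 in size. A change of at least 1 was found in 121 of them, 51 higher and 70 lower, and of at least 2 in 38. In all 284 every mutant array lay on the same side of every wild-type array, which was so for 19.1% of all probe sets. A gap between the groups is thus shared by every call and adds no support for single called genes below. The median difference over all probe sets was 0.0015. An unadjusted limma p under 0.05 was found on 2215 of the 15502 (14.3%), the share to set beside such counts in the lists below. Of the 10795 probe sets with 1 gene symbol, 190 were called (1.76%), and they stood for 180 genes. The other 94 called probe sets had no single symbol.

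The count fell to 156 when samples 1a and 1b were averaged to 1 replicate, with 153 of these among the 284. It was 105 when only these 6 arrays were fitted, 94 of them among the 284. It ran from 161 without wild-type replicate 1 or 2 to 466 without BRAF replicate 1, which entered only the estimate of the spread.

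**Figure D1:**
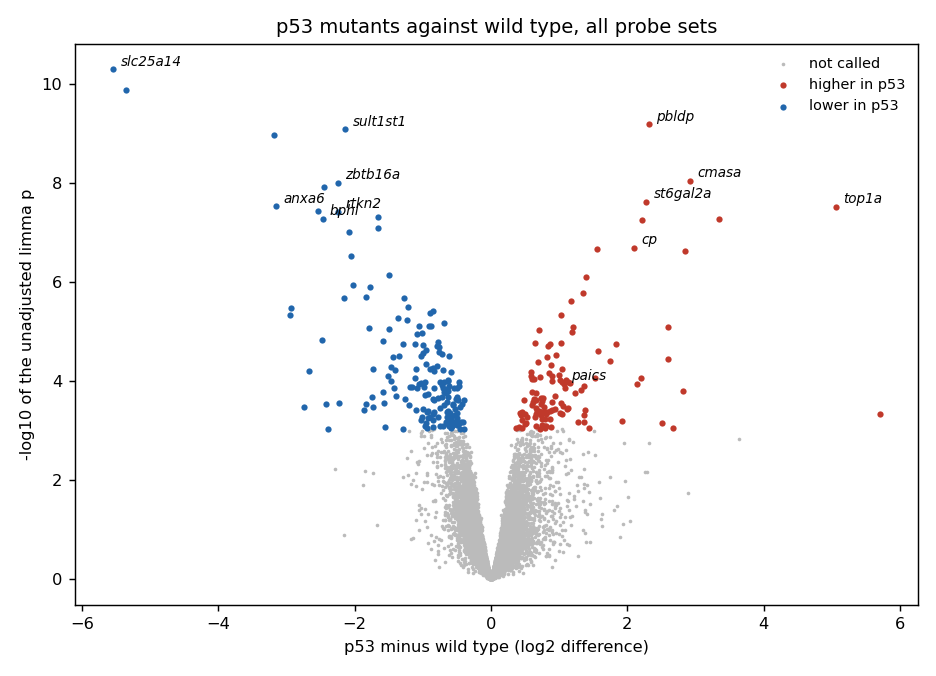
Each point is 1 probe set, with the log2 difference between p53 mutants and wild type on the x axis and -log10 of the unadjusted limma p on the y axis. The 117 probe sets called higher are red and the 167 called lower are blue, with slc25a14 at -5.54 and top1a at 5.06 at the far ends among the labelled genes.

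The list of p53 targets had 27 measured genes on 35 probe sets, and 0 passed the limma test in either direction. An unadjusted p under 0.05 was found for 4 of the 35, beside 14.3% of all probe sets. With 1.83% of all probe sets called, a count of 0 among 35 is near the background. Their median difference was -0.04, beside 0.0015 over all probe sets, and 22 of 35 were negative. Mutant and wild-type arrays did not overlap on 11.4% of them, against 19.1% of all probe sets.

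The nearest to a call was rps27l, which encodes a ribosomal protein-like factor and is a p53-responsive gene in vertebrates. Its values were -0.26, -0.06 and -0.16 on the p53 arrays and 0.53, 0.42 and 0.05 on the wild-type arrays. All 3 mutant values lay below the 3 wild-type values, but wild-type replicate 3 came close to them. The difference was -0.49 ± 0.12 (SE, n = 3 per genotype; limma adjusted p = 0.0756), with a 95% interval from -0.76 to -0.22 before adjustment. In the BRAF background the same probe set fell by 1.0 ± 0.12 (limma adjusted p = 0.00119). The test of the difference between the backgrounds did not pass (limma adjusted p = 0.14).

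The cyclin gene ccng1, induced by p53 in vertebrates, had values of -0.16, -0.29 and -0.09 in mutants and -0.01, 0.11 and 0.15 in wild type. The groups did not overlap, and the difference was -0.27 ± 0.10 (limma adjusted p = 0.227). For mdm2, the p53-induced inhibitor of p53, the mutant values of 0.23, -0.05 and 0.37 overlapped the wild-type values of 0.21, 0.09 and 0.01. Its difference of 0.08 had a 95% interval from -0.29 to 0.45 (limma adjusted p = 0.887). The polo-like kinase gene plk3 had a difference of -0.05 here and fell by 0.73 in the BRAF background (limma adjusted p = 0.88 and 0.00294), and that contrast between backgrounds passed its own test (limma adjusted p = 0.0304). In the BRAF background rps27l and plk3 were the 2 calls among the 35 target probe sets. That is near the 4.5% called among all probe sets there.

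Other targets spread to both sides of 0. The pro-apoptotic gene pmaip1 (Noxa) had 0.77 on one probe set and -0.01 on the other (limma adjusted p = 0.378 and 0.994), and bbc3 (Puma) had 0.12. The adhesion and apoptosis gene perp had -0.43 and -0.15, baxa, the pore-forming Bax gene, -0.31, and the damage recognition gene ddb2 -0.82 (limma adjusted p = 0.221, 0.585, 0.354 and 0.36). The ddb2 value rested on p53 replicate 3 at -1.79, with -0.13 and 0.18 on the other mutant arrays and 0.13 to 0.30 in wild type.

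The p53 family and its regulators had 14 measured genes on 20 probe sets, of which 0 passed in limma, 2 with an unadjusted p under 0.05, and their median was -0.09. The DNA damage kinase gene chek1 had the highest value, 0.41, and ppm1da, a phosphatase that turns the response off, the lowest, -0.29 (limma adjusted p = 0.179 and 0.305). The paralog tp63 had -0.10 and 0.01 on its probe sets. The tp73 probe set lay between -2.09 and -2.01 on all 6 arrays, a difference of 0.01 between the groups (limma adjusted p = 0.976). Its distance from 0 was not read as a level.

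In the apoptosis machinery 0 of 19 genes passed in limma, 3 of 21 probe sets with an unadjusted p under 0.05, and the median was -0.05. In the cell cycle list 0 of 30 genes passed, 8 of 42 probe sets with an unadjusted p under 0.05, beside 14.3% of all probe sets. There 32 of 42 probe sets were negative, with a median of -0.09, and the replication licensing inhibitor gene gmnn was nearest to a call at 0.62 (limma adjusted p = 0.0539). In the DNA repair and topology list, 1 of 24 genes passed, top1a, on 3 of the list's 38 probe sets, beside the 1.83% called among all probe sets. The median of that list was -0.01 and 19 of its 38 probe sets were negative.

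The gene with the largest rise among named genes was top1a, DNA topoisomerase I, which relieves the twist of DNA ahead of polymerases. Its values were 0.06, 0.34 and 1.09 in mutants and -4.23, -4.51 and -4.93 in wild type. The mutant arrays lay near the median of the series and the wild-type arrays far below it, with no overlap. The difference was 5.06 ± 0.37 (SE; limma adjusted p = 4.15e-05), a 33.2-fold rise. A second top1a probe set rose by 1.83 and another by 0.79 (limma adjusted p = 0.00452 and 0.0473). The remaining top1a probe sets had 0.90, 0.32 and -0.05 and did not pass (limma adjusted p = 0.266, 0.621 and 0.898). The call of the probe set at 0.79 was kept in 1 of 12 fits, each made without 1 of the arrays. In 6 of these 12 the array left out was BRAF or BRAF;p53. Those 6 leave the difference unchanged and alter only the estimate of the spread, here and in the counts of fits below.

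Next came cmasa, which makes the activated form of sialic acid, with 0.02, 0.24 and 0.74 in mutants and -2.43, -2.92 and -2.41 in wild type. It rose by 2.92 ± 0.19 (limma adjusted p = 2.15e-05). A sialyltransferase gene, st6gal2a, also rose, by 2.28 ± 0.16 (limma adjusted p = 4.05e-05), from -1.63, -1.65 and -1.61 in wild type to 0.91, 0.34 and 0.69. The groups stood apart for both genes. The melanin-concentrating hormone receptor gene mchr1b rose by 2.84 ± 0.25, with mutant values of 0.41, 0.32 and 0.78 and wild-type values of -2.05, -2.64 and -2.31 (limma adjusted p = 0.000166). A second mchr1b probe set of the same target had 0.01 (limma adjusted p = 0.973).

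Ceruloplasmin, cp, a copper-carrying ferroxidase made by the liver, rose by 2.1 ± 0.19 (limma adjusted p = 0.000157), from -1.26, -1.2 and -0.98 in wild type to 1.15, 0.58 and 1.13. The lowest mutant array was well above the highest wild-type array. The creatine kinase gene ckba rose by 2.60, the phenazine biosynthesis-like gene pbldp by 2.31, tmem263 by 1.74, the heparan sulfate sulfotransferase gene ndst2a by 1.57, the neural adhesion gene l1cama by 1.55 and the galectin gene lgals9l3 by 1.2. Each of these 6 calls was kept in all 12 fits that left out 1 array. The ckba probe set of another target had -0.48, and the remaining tmem263 probe sets had -0.10 and -0.01 (limma adjusted p = 0.429, 0.861 and 0.977).

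The other genes among the 15 largest rises were si:ch1073-340i21.3 with 2.81, igldcp with 2.5, si:dkey-22l11.6 with 2.21 and zgc:113162 with 2.14. The si:dkey-22l11.6 call was kept in all 12 such fits, and that of zgc:113162 in 10. A second si:dkey-22l11.6 probe set had 0.86 (limma adjusted p = 0.144). The igldcp value was highest on p53 replicate 3, at 3.42 against 1.44 and 0.98 on the other mutant arrays, and its call was kept in 3 of 12 fits (limma adjusted p = 0.0429, and 0.133 without wild-type replicate 1). For si:ch1073-340i21.3 the mutant arrays were nearly equal, 2.44, 2.44 and 2.48, while wild type spread from -1.82 to 0.49, and the call was lost in 2 of 12 fits.

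The largest fall was in slc25a14, a mitochondrial carrier of the uncoupling protein family. Its values were -0.05, 0.01 and -0.14 in mutants and 5.05, 5.29 and 6.10 in wild type. The wild-type arrays were far above the median of the series and the mutant arrays at it. The difference was -5.54 ± 0.22 (SE; limma adjusted p = 7.74e-07), a level 46.4-fold lower in mutants. A second probe set of the same target sequence gave -5.35, while the one of another target gave -0.20 (limma adjusted p = 1e-06 and 0.801).

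The annexin gene anxa6, whose product binds membranes in response to calcium, fell by 3.15 ± 0.23 (limma adjusted p = 4.15e-05), from 3.48, 3.95 and 4.04 in wild type to 0.26, 0.44 and 1.3. The sulfotransferase gene sult1st1 fell by 2.14 ± 0.11 (limma adjusted p = 3.11e-06), and its wild-type values of 2.27, 2.21 and 2.14 stood apart from the mutant values of -0.09, 0.28 and 0.03. The endothelin receptor gene ednraa, which acts in vessels and in the neural crest, fell by 2.15 ± 0.24 (limma adjusted p = 0.00105). For it too the mutant arrays, -0.45 to 0.08, lay far below the wild-type arrays, 1.75 to 2.07.

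For rtkn2 and thy1 the wild-type arrays lay nearer to 0 and the mutants far below it. The gene rtkn2 had -1.88, -1.84 and -2.17 in mutants and 0.41, 0.32 and 0.10 in wild type, a difference of -2.24 ± 0.17 (limma adjusted p = 4.52e-05). The surface glycoprotein gene thy1 had -2.24, -2.43 and -2.11 against 0.21, 0.32 and 0.69, a difference of -2.67 ± 0.43 (limma adjusted p = 0.0105). Neither pair of groups overlapped, and both calls were kept in all 12 fits that left out 1 array. The zinc finger transcription factor gene zbtb16a (PLZF) had a difference of -2.25 and the serine hydrolase gene bphl of -2.47 (limma adjusted p = 2.15e-05 and 4.95e-05), and these calls were kept in all 12 as well.

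Other large falls were in zgc:112271, at -2.94, in fbxo44.9, an F-box gene, at -1.83, and in the immunoproteasome subunit gene psmb10, at -2.42. The talin gene tln2a, which links integrins to actin, fell by 2.74. Its mutant values were -3.30, -3.53 and -1.01, so replicate 3 stood between the others and wild type at -0.05 to 0.39. The tln2a and LOC567883 calls were kept in 7 of 12 fits, that of the chromatin ATPase gene ruvbl2 in 7, and those of psmb10 and the calpain gene capn2l in 8. The differences were -2.23 for LOC567883, -1.86 for ruvbl2 and -1.83 for capn2l. Probe sets of other targets had 0.45 and 0.22 for capn2l and 0.04 for zgc:112271 (limma adjusted p = 0.198, 0.544 and 0.938).

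The probe set with the largest rise of all had no gene symbol. It had 6.8, 7.2 and 7.32 in mutants and -0.52, 5.21 and -0.48 in wild type. Wild-type replicate 2 thus lay close to the mutants, and the difference of 5.70 had an SE of 1.16 (limma adjusted p = 0.0327). The next largest rise of an unnamed probe set was steadier, with 1.87, 1.87 and 1.84 in mutants and -1.22, -1.97 and -1.27 in wild type (difference 3.35, limma adjusted p = 4.95e-05). It was also higher in BRAF;p53 than in BRAF embryos, by 2.18 (limma adjusted p = 0.00112).

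**Figure D2:**
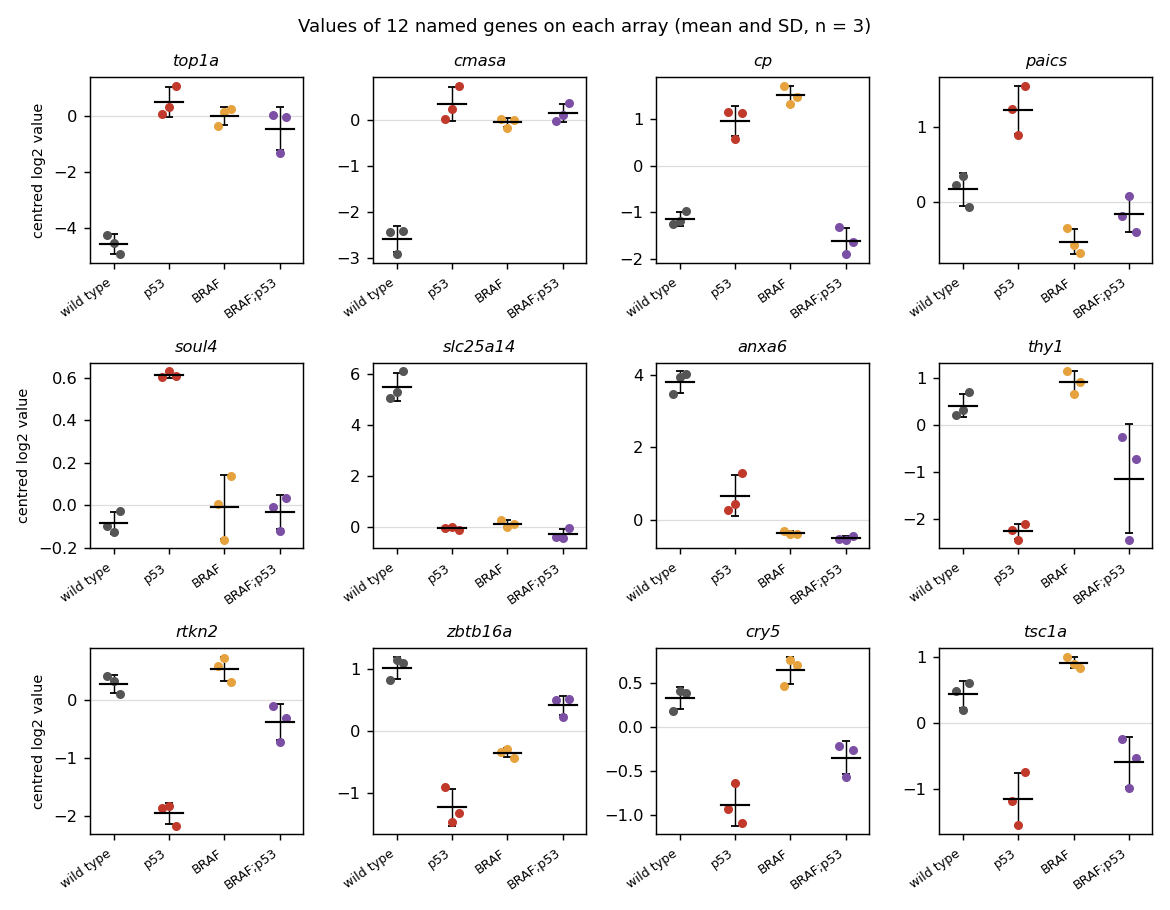
Each panel shows the centred log2 values of 1 gene on the 12 arrays, 3 points per genotype with the mean as a line and the SD as a bar. In top1a, cmasa, slc25a14 and anxa6 the wild-type arrays stand apart from all 3 other genotypes, while in rtkn2, thy1, cry5 and tsc1a the p53 arrays are lowest.

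Several of the largest changes had similar values in other lines against the same wild-type arrays. Those comparisons share the wild-type arrays, so their values stand side by side only as a description. For top1a the difference from wild type was 5.06 in p53, 4.58 in BRAF and 4.11 in BRAF;p53 embryos. For slc25a14 it was -5.54, -5.36 and -5.77, for cmasa 2.92, 2.53 and 2.74, and for sult1st1 -2.14, -2.38 and -2.23. For ckba it was 2.60, 3.29 and 2.60, for LOC567883 -2.23, -2.80 and -2.37, and for fbxo44.9 -1.83, -1.36 and -1.66. In these genes wild type stood apart from the other lines, including the BRAF line with unaltered p53.

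Compared directly with BRAF embryos, 5 of the 15 largest rises and 9 of the 15 largest falls were called, in either direction. The share of all probe sets called in that comparison is not given here, so these counts have no background beside them. They also reuse the p53 arrays through which the genes were chosen. A gene not called there is not thereby shown to be equal in both lines. The direct difference between p53 and BRAF embryos was 0.48 for top1a, -0.18 for slc25a14 and 0.39 for cmasa, and none of these passed (limma adjusted p = 0.464, 0.65 and 0.254). For anxa6 it passed, at 1.04 (limma adjusted p = 0.0205), since the level was lower still in BRAF embryos. Whether p53 loss or another property of the wild-type samples or their strain sets these differences cannot be told apart here.

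Other genes differed from BRAF embryos as well as from wild type. Both comparisons use the same p53 arrays, through which these genes were chosen, so the second is not separate evidence. For rtkn2 p53 embryos were lower than BRAF embryos by -2.5, for thy1 by -3.16, for bphl by -1.70 and for the cryptochrome and photolyase family gene cry5 by -1.53 (limma adjusted p = 1.44e-05, 0.00136, 0.000434 and 0.000151). They were higher by 2.23 for si:dkey-22l11.6, by 0.77 for lgals9l3 and by 1.78 for paics (limma adjusted p = 4.01e-05, 0.0123 and 0.000247).

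Another probe set of the same gene was available for 69 of the 180 called genes, and in 8 of these at least 2 probe sets passed in the same direction. Higher in mutants were top1a, ndst2a and the heme-binding gene soul4. The ndst2a probe sets, of separate targets, rose by 1.57 and 1.39 (limma adjusted p = 0.00555 and 0.000478). The soul4 probe sets share a target and rose by 0.70 and 0.61, with mutant arrays from 0.42 to 0.63 and wild-type arrays from -0.12 to -0.01.

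Lower were slc25a14, the makorin ubiquitin ligase gene mkrn4, the tetraspanin gene cd82b, the dehydrogenase gene dhrs13b.1 and gpalpp1. For mkrn4 all 3 called probe sets came from separate targets, with -1.57, -1.49 and -0.72 (limma adjusted p = 0.0251, 0.000465 and 0.0149). The steadiest of them had -0.21, -0.61 and -0.32 in mutants and 0.92, 1.25 and 1.17 in wild type. The called cd82b probe sets gave -1.0 and -0.48, those of dhrs13b.1 -0.84 and -0.88, and those of gpalpp1 -0.78 and -0.71. Another cd82b probe set had -0.805 and another of gpalpp1 -0.27, and neither passed (limma adjusted p = 0.0954 and 0.236). Of the 18 called probe sets of these 8 genes, 11 were kept in all 12 fits that left out 1 array. Averaging samples 1a and 1b kept 11, but neither of cd82b (limma adjusted p = 0.067 and 0.0623). Of the 15 largest rises, 5 genes had a probe set of another target and 2 of these were called on it, top1a and ndst2a. Of the 15 largest falls, 3 had one and 0 were called on it, so each of those changes rests on 1 target sequence. With samples 1a and 1b averaged, 13 of the 15 largest rises and 10 of the 15 largest falls were still called, and 11 and 12 with only these 6 arrays fitted.

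In 29 lists of tissues and pathways, 555 genes were measured on 706 probe sets. Of these, 17 genes passed on 20 probe sets (2.83%), beside 1.83% of all probe sets. In 14 of the 29 lists 0 genes passed. The medians of the lists lay between -0.19 for photoreceptors and 0.43 for exocrine pancreas.

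Liver plasma proteins had 24 of 35 probe sets positive and a median of 0.16, with cp higher and vtnb lower among 30 measured genes. Vitronectin, vtnb, an adhesion protein of plasma, fell by 0.84 ± 0.15, with -0.38, -0.62 and 0.01 in mutants and 0.65, 0.45 and 0.43 in wild type (limma adjusted p = 0.0158). The mutant arrays were all lower, and the call was kept in 10 of 12 fits that left out 1 array (limma adjusted p = 0.0667 without wild-type replicate 1). It was not kept with samples 1a and 1b averaged (limma adjusted p = 0.0565). Fibrinogen genes fga, fgb and fgg had 0.23, 0.16 and 0.33 and did not pass. Among the other 9 copper and iron genes 0 passed in limma (3 of the list's 13 probe sets, cp included, had an unadjusted p under 0.05), with values from -0.32 for the iron exporter gene slc40a1 to 1.45 for aco1 (limma adjusted p = 0.217 and 0.572).

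Nucleotide synthesis had 1 gene higher and 1 lower among 19, and 17 of 22 probe sets were negative. The purine synthesis gene paics rose by 1.07 ± 0.18, with 1.25, 0.90 and 1.55 in mutants and 0.23, 0.35 and -0.08 in wild type (limma adjusted p = 0.0144). No mutant array reached down to the wild-type range. This gene also stands in the iridophore list, where it was the 1 called of 6 genes. Other enzymes of the same pathway had 0.56 for gart, -0.03 for ppat, -0.03 for atic and -0.19 for adsl, and none passed (limma adjusted p = 0.261, 0.95, 0.979 and 0.609). The mitochondrial one-carbon gene shmt2 fell by 1.12 ± 0.19 on 1 probe set (limma adjusted p = 0.0131) and had -0.10 on the other.

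Cartilage and bone had 25 of 37 probe sets negative, with a median of -0.04, and 1 of 25 genes passed. This was cnmd, chondromodulin, a cartilage protein that restrains vessel growth, which fell by 0.92 ± 0.19 (limma adjusted p = 0.0359). Its values were -0.72, -0.45 and -0.07 in mutants and 0.37, 0.32 and 0.83 in wild type, and its second probe set had -0.46 (limma adjusted p = 0.198). The call was kept in 4 of 12 fits that left out 1 array (limma adjusted p = 0.119 without wild-type replicate 3). The cartilage collagen gene col2a1a had -0.09 and the cartilage regulator sox9a -0.04.

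In the heat shock and stress list 2 of 29 genes passed, both lower. The gene ddit4 (REDD1), an inhibitor of the growth kinase complex mTORC1 that in mammals is induced by stress and by p53, fell by 1.09 ± 0.15 (limma adjusted p = 0.0033). Its values were -0.33, -0.24 and -0.31 in mutants and 1.16, 0.50 and 0.74 in wild type, with no overlap. The call was kept in all 12 fits that left out 1 array, but not with only these 6 arrays fitted (limma adjusted p = 0.0573). BRAF embryos had a similar difference from the same wild-type arrays, -0.95. Between BRAF;p53 and BRAF embryos ddit4 differed by -0.20 and did not pass (limma adjusted p = 0.441). The quinone reductase gene nqo1 fell by 0.51 (limma adjusted p = 0.0221, kept in 8 of 12 fits).

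In the circadian list cry5 fell by 1.22 ± 0.14, with -0.93, -0.63 and -1.10 in mutants and 0.19, 0.41 and 0.39 in wild type (limma adjusted p = 0.00148). Its second probe set had -0.37 (limma adjusted p = 0.244), and the other 24 genes did not pass. The long-chain acyl-CoA synthetase gene acsl1a rose by 0.88 on 1 of its probe sets, and the others had 0.47 to 0.99 and did not pass. That call was kept in 3 of 12 fits that left out 1 array.

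Single genes passed in lists of cell types. In leukocytes and antigen presentation these were thy1 and psmb10 of 26 genes, both lower. They were 2 of 32 probe sets, beside 1.83% of all probe sets called. The list itself did not lean lower, with 18 of 32 probe sets positive and a median of 0.04. In the xanthophore list, mycbp2, a ubiquitin ligase gene whose zebrafish mutants have altered yellow pigment and axon growth, fell by 0.96 ± 0.14 (limma adjusted p = 0.00549), from 0.22, 0.00 and 0.10 in wild type to -0.80, -0.93 and -0.83. The remaining calls were the ERK-induced transcription factor gene etv5a at -0.62, the photoreceptor disc gene rom1a at -1.11 and the muscle regulator gene myog at -0.47. These 3 calls were kept in 2, 6 and 2 of 12 fits, respectively. In melanophores, neural crest, myelin and glia, neurons and synapses, lens, heart, intestine and erythrocytes 0 genes passed in limma, and between 0 and 3 probe sets of each list had an unadjusted p under 0.05.

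Groups could lean one way with no member called. In the proteasome list 33 of 35 probe sets were negative, with a median of -0.17 and a range from -0.38 to 0.03. There 0 passed in limma, and 5 of 35 had an unadjusted p under 0.05, beside 14.3% of all probe sets. Mutant and wild-type arrays did not overlap on 31.4% of the proteasome probe sets, against 19.1% of all probe sets. Exocrine pancreas had 15 of 18 probe sets positive, up to 1.61 for the carboxypeptidase gene cpa4, but mutant and wild-type arrays overlapped on all 18, and 0 passed in limma (1 with an unadjusted p under 0.05).

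**Figure D3:**
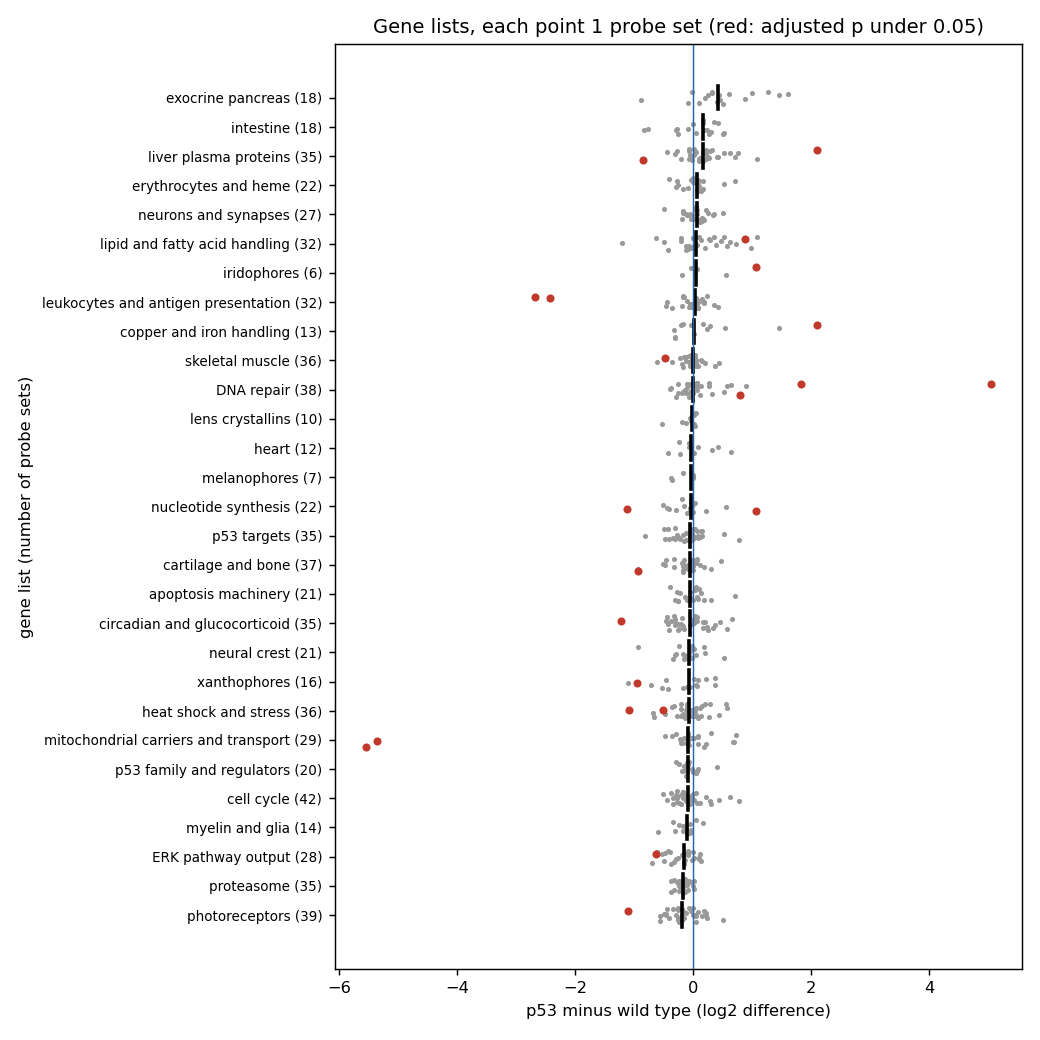
Each row is 1 gene list with its number of probe sets, and each point is the log2 difference of 1 probe set between p53 mutants and wild type, red where the adjusted p was under 0.05. The line marks the median of all probe sets, 0.0015, and most lists lie around it, with slc25a14 and top1a as the far points.

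The same allele was next examined in the BRAF background, whose arrays entered the comparison with wild type only through the shared estimate of the spread. There 698 of 15502 probe sets passed between BRAF;p53 and BRAF embryos (4.5%), 314 higher (2.03%) and 384 lower (2.48%). In both backgrounds 23 probe sets changed the same way, 8.1% of the 284 and 3.3% of the 698. They were 9 higher and 14 lower, with 14 named genes and 9 probe sets without a single symbol. With each pair of genotypes fitted alone 9 probe sets passed the same way.

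Among the lower genes was tsc1a (hamartin), an inhibitor of mTORC1, with -1.17, -1.54 and -0.74 in p53 mutants and 0.49, 0.20 and 0.60 in wild type. It had -1.58 ± 0.22 here and -1.5 in the BRAF background (limma adjusted p = 0.0043 and 0.00336). The cry5 gene had -1.22 and -1.0 (limma adjusted p = 0.00148 and 0.00307), and thy1 -2.67 and -2.04 (limma adjusted p = 0.0105 and 0.0219). These groups did not overlap here, and the calls against wild type were kept in all 12 fits that left out 1 array.

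Also lower in both were ruvbl2, with -1.86 and -2.42, capn2l, with -1.83 and -2.17, zgc:112271, with -2.94 and -1.49, and the survival gene api5, with -1.02 and -1.1. Probe sets of other targets did not pass in either comparison, with 0.45 and 0.18 and with 0.22 and 0.48 for capn2l, with 0.04 and -0.50 for zgc:112271, and with -0.19 and 0.05 for api5. The rtkn2 and bphl falls were smaller in the BRAF background, -0.92 and -0.96, and that difference in size passed its own test (limma adjusted p = 0.0125 and 0.0121). Higher in both were the inflammatory caspase gene caspb, by 1.05 and 0.92, mpdu1a, which acts in dolichol-linked sugar use, by 0.72 and 0.93, and si:ch1073-340i21.3, by 2.81 and 2.76. The mpdu1a call against wild type was kept in 2 of 12 fits that left out 1 array, api5 in 7 and caspb in 10. A second caspb probe set had 0.09 and 0.51 and did not pass. The ESCRT gene chmp1a and the oxysterol-binding gene osbpl2b completed the 14.

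Another 37 probe sets passed in both backgrounds with opposite directions, 13% of the 284 and 5.3% of the 698. In 25 of them the level was higher in p53 mutants than in wild type and lower in BRAF;p53 than in BRAF embryos, and in 12 the reverse. They held 27 named genes. Of these 27 calls against wild type, 10 were kept in all 12 fits that left out 1 array. Averaging samples 1a and 1b kept 15, and a fit restricted to the 6 mutant and wild-type arrays kept 10. The count of 37 ranged from 18 to 54 with each array left out and was 11 with each pair of genotypes fitted alone. The widest contrast among these genes was in cp, which rose by 2.1 against wild type and fell by 3.13 in the BRAF background (limma adjusted p = 8.03e-06). BRAF embryos alone had 2.65 more cp than wild type, and BRAF;p53 embryos had -0.48.

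The same form was seen in mchr1b, with 2.84 and -2.05, tmem263, with 1.74 and -2.11, and the GABA-degrading transaminase gene abat, with 1.16 and -2.05. With smaller falls in the BRAF background it was seen in the sulfotransferase gene sult6b1, with 0.83 and -1.28, the co-chaperone gene bag2, with 0.86 and -0.54, and pbldp, with 2.31 and -0.50. The reverse was seen in zbtb16a, with -2.25 and 0.77, the collagen gene col14a1a, with -1.06 and 1.36, the nucleotide hydrolase gene nudt2, with -1.0 and 1.02, and the matrix gene vcanb (versican), with -0.58 and 0.75. Against the same wild-type arrays, BRAF embryos had 3.81 for mchr1b and -1.37 for zbtb16a, and BRAF;p53 embryos had 1.75 and -0.60. The companion probe sets of mchr1b and tmem263 did not pass in the BRAF background either, with -0.06 for mchr1b and 0.43 and -0.19 for tmem263.

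Of the 284 probe sets, 224 were not called in the BRAF background. That alone does not show a difference between backgrounds. The test of the difference itself, the interaction of the p53 allele with the transgene, passed on 497 of all 15502 probe sets (3.21%). For slc25a14 and top1a the BRAF;p53 arrays differed from BRAF by -0.42 and -0.46 and did not pass (limma adjusted p = 0.299 and 0.484). Their interaction was 5.12 and -5.51 (limma adjusted p = 1.57e-05 and 0.000302). For both genes wild type stood apart from all 3 other lines, and what sets these interactions was not tested.

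**Figure D4:**
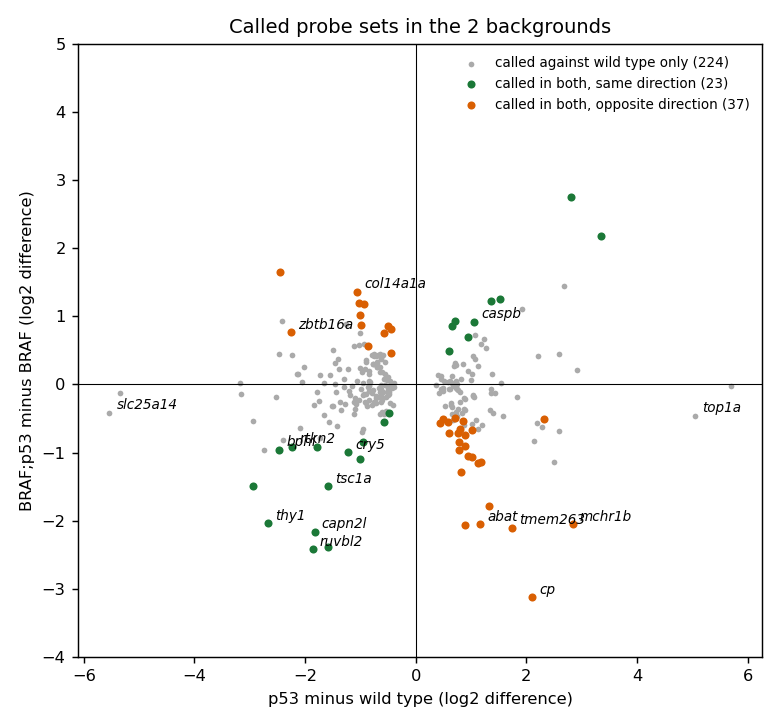
Each point is 1 of the 284 probe sets called between p53 mutants and wild type, with that log2 difference on the x axis and the difference between BRAF;p53 and BRAF embryos on the y axis. The 23 probe sets called in the same direction in both are green, the 37 called in opposite directions orange and the other 224 grey.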

How the data were processed

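Whole embryos of 4 genotypes were measured on 12 Affymetrix arrays, 3 per genotype, with groups and replicate numbers from the sample labels. The deposited values are log2 expression computed by the authors with GCRMA (version not given), per the submitters' processing notes. Turned to the linear scale, their median over the 12 arrays was 1 within 0.0001 for 13937 of 15617 probe sets (89.2%), below 1 for 1680 and above 1 for 0. The values were therefore taken as centred per probe set, so brightness, depth and signal over background are unknown. The divisor of the 1680 is also unknown. Array medians ran from -0.036 to 0.081. A planned filter on log2 levels of at least 4 and a pseudocount could not be applied to centred values, and all 15502 probe sets other than 115 controls were tested. The number of arrays limits the precision.

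Gene names came from the annotation of the array platform: 10795 probe sets had 1 symbol, 135 several and 4572 none. Of the 10795, 10711 matched the RefSeq gene table (GRCz12tu) by gene ID and took its symbol. The 10795 then held 8793 distinct symbols. Differences were tested with limma 3.58.1 (R 4.3.3), lmFit and eBayes, 1 mean per genotype over all 12 arrays, two-sided, with Benjamini-Hochberg adjustment over 15502 probe sets at 0.05. SEs and intervals are from this fit. A gene list is described by counts and medians only.

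The genotypes, the comparison and the 29 gene lists were chosen with earlier results of these data known. Named were the 15 largest rises, 15 largest falls and 10 smallest p among called genes, genes called by at least 2 probe sets, called list members, the measured p53 targets and family, genes called in both backgrounds (10 the same way by smallest p, all the opposite way), the 10 smallest interaction p, and a few fixed names. The rises, falls and smallest p were also required to have no overlap between mutant and wild-type arrays, which all 284 calls met. Genes of other groups given as examples below the threshold, and the unnamed probe sets, were chosen after their values were seen.

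On simulated data for this comparison over 15502 probe sets with 50 changed per size, 38% of changes of 0.5 were recovered, 80% of 1, 100% of 2 and 98% of 3. Among 164 calls 6 were false. Errors were drawn independently and with equal spread in all genotypes. The settings tried instead were a replicate block, quantile normalization, array medians centred on 0, the trend and robust options of eBayes, samples 1a and 1b averaged, only the genotypes compared, each array left out, an absolute difference of at least 1, and probe sets averaged per gene. Leaving out probe sets of median below 1, and all settings for the count of probe sets called opposite ways, were added after seeing the data. A comparison by gene order is not reported here. Figures were drawn with matplotlib 3.10.9 and tables made with pandas 2.3.3 and numpy 2.4.6 in Python 3.11.15.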

Additional observations from a re-analysis of the deposited data

Results flagged for a closer look

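For these probe sets the difference between BRAF;p53 and BRAF embryos was unlike that between p53 mutants and wild type. The limma interaction test gave an adjusted p under 0.05. The interaction is the difference between BRAF;p53 and BRAF embryos minus that between p53 mutants and wild type, on the log2 scale. Most were looked at because they passed between p53 mutants and wild type. That difference enters the interaction with the opposite sign, so these values are not independent of how the genes were chosen. For genes called in opposite directions in both backgrounds, that choice fixes the sign of the interaction. All 37 such probe sets passed the interaction test, which therefore adds no separate evidence for them. Groups of 3 arrays were too small to look for single outlying arrays. In several genes, among them slc25a14, top1a, cmasa, sult1st1, anxa6 and ednraa, wild type stood far from all 3 other lines. For ednraa the difference from wild type was -2.15 in p53, -2.11 in BRAF and -1.96 in BRAF;p53 embryos. Whether p53 loss or another property of the wild-type samples sets these interactions was not tested.

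Among genes called in both backgrounds in opposite directions, the interaction was negative, with a rise against wild type and a fall in the BRAF background, for cp at -5.23, mchr1b at -4.89, tmem263 at -3.85, abat at -3.21 and pbldp at -2.81. Of the same kind were sult6b1 at -2.11, the cerebellin family gene cbln11 at -2.09, the ribosomal fusion gene faub at -1.99, the aldo-keto reductase gene akr1b1.2 at -1.80 and wu:fc17e06 at -1.75. Smaller values were found for zgc:136864 at -1.69, the spectrin gene sptbn1 at -1.63, the RNA methyltransferase gene ftsj1 at -1.63, ube2g1b at -1.46 and bag2 at -1.40. The list ends with dhrs7b at -1.31, zgc:77439 at -1.21, the glycogen phosphorylase gene pygl at -1.01 and selenoo1 at -1.0.

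The reverse, a fall against wild type and a rise in the BRAF background, was found for zbtb16a at 3.02, col14a1a at 2.42, the methionine sulfoxide reductase gene msrb1a at 2.13 and nudt2 at 2.02. It was also found for ecsit at 1.42, myg1 at 1.36, vcanb at 1.33 and the mitophagy receptor family gene fundc2 at 1.27.

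Among the other genes that fell against wild type, the interaction was 5.22 and 5.12 for slc25a14, 3.35 for psmb10, 3.02 for anxa6, 2.67 for LOC567883, 2.31 for ednraa and 2.29 for sult1st1. It was 1.76 for cd82b, 1.53 for fbxo44.9, 1.51 for bphl, 1.32 for rtkn2, 1.18 for mkrn4 and 1.14 for cnmd. It was 1.08 and 1.02 for gpalpp1, 0.99 for vtnb, 0.98 for mycbp2, 0.89 for ddit4 and 0.62 for nqo1.

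Among the other genes that rose, top1a had -5.51, -2.02 and -1.05 on its called probe sets, igldcp -3.64, ckba -3.29, zgc:113162 -2.97, st6gal2a -2.91 and cmasa -2.72. The ndst2a probe sets had -2.04 and -1.81, lgals9l3 -1.80, si:dkey-22l11.6 -1.79, l1cama -1.52, acsl1a -1.26 and soul4 -0.72.

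The ubiquitin-conjugating enzyme gene ube2q2 and znhit1 were named for their small interaction p. Their interactions were 7.32 and 2.36 (limma adjusted p = 1.57e-05 and 3.93e-05). Neither passed between p53 mutants and wild type, with -0.32 and -0.09 (limma adjusted p = 0.724 and 0.806). Their differences between BRAF;p53 and BRAF embryos were 7.0 and 2.27 (limma adjusted p = 2.18e-06 and 4.24e-06).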

How the results depend on the processing

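All 284 calls between p53 mutants and wild type kept their sign under every alternative that refitted those probe sets. For most settings this was fixed in advance and says nothing of stability. Mutant and wild-type arrays did not overlap on these probe sets, so leaving out or averaging arrays could not turn the sign. Settings that alter only the spread leave the difference as it was. The number of calls was 121 with an absolute difference of at least 1, 105 with only the genotypes compared, 156 with samples 1a and 1b averaged, 146 with probe sets averaged per gene and 161 to 466 with each array left out. Genes called by at least 2 probe sets numbered 4, 3 and 4 under the first 3 of these and 4 to 17 with each array left out, against 8. Listed genes called numbered 10, 7 and 9, and 12 to 20 with each array left out, against 17. Between BRAF;p53 and BRAF embryos 220 passed with a difference of at least 1, 434 per gene and 302 to 982 with each array left out, against 698. The interaction gave 317 with a difference of at least 1, 312 with samples averaged, 312 per gene and 284 to 787 with each array left out (787 without p53 replicate 3), against 497. Probe sets called the same way in both backgrounds numbered 11, 9, 11 and 14 under the first 4 settings and 10 to 34 with each array left out, against 23. Those called opposite ways numbered 12, 11, 22 and 23 under those settings and 18 to 54 with each array left out, against 37. The cause was not tested, beyond the fewer samples or probe sets that some settings hold. The replicate block gave 316 calls, 250 of them among the 284. Deviations of equally numbered p53 and wild-type arrays correlated at 0.277, -0.323 and -0.048, so the numbers were not taken as pairs. Quantile normalization gave 356 calls, centred medians 288, trend and robust settings 230, and leaving out probe sets of median below 1 gave 285. A random block for samples 1a and 1b could not be fitted with 1 shared pair, and the filter and pseudocount did not apply to centred values.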

Other observations

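Lipid and fatty acid genes were among the lists whose arrays most often stood apart between p53 mutants and wild type. The groups did not overlap on 12 of their 32 probe sets (37.5%), beside 19.1% of all probe sets. Every probe set of 1 gene, acsl1a, was among these 12, so the 12 stand for fewer genes. Of these 32, 20 were positive with a median of 0.05, and acsl1a alone of 26 genes passed. The values ran from -1.20 for the desaturase gene fads2 to 1.08 for fabp10a, the liver fatty acid binding protein gene. Erythrocyte and heme genes had 15 of 22 probe sets positive and a median of 0.08, and ERK pathway output had 21 of 28 negative and a median of -0.15.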
